A study of Homo sapiens with 6 samples.

Results

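HERVW is a family of human endogenous retroviruses, and the repeat table lists its RNA under 2 names. LTR17 is the long terminal repeat (LTR), the promoter-bearing flank of the provirus, and HERV17-int is the internal region between the LTRs. Both were taken by these row names, 2 of 15600 entries in the deposited table of raw repeat counts, of which 14233 are simple or low-complexity repeats. Both had counts in all 6 libraries and passed the filter on low counts. The cells were H9, an established line of human embryonic stem cells, with 2 libraries in each of 3 groups. RSeT+DT cells were kept in RSeT medium with 10 nM DZNep and 5 nM TSA and collected after 48 hours. RSeT cells were kept in the same naive-type medium without these drugs. Primed cells were kept in mTeSR, the usual medium for primed human embryonic stem cells. DZNep blocks S-adenosylhomocysteine hydrolase and so lowers methylation by EZH2, and TSA (trichostatin A) inhibits histone deacetylases. The drugs were given together, so their separate effects cannot be told apart. Total RNA was sequenced, which also holds transcripts that lack a poly(A) tail. Whether the replicates are separate cultures is not stated, and the p-values cover only library-to-library spread, which may be technical. In bulk RNA, fewer cells of a type and less RNA per cell cannot be told apart.

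HERVW proviruses entered the primate germline long ago and are now fixed in human genomes. In an intact provirus, transcription starts in the upstream LTR, runs through the internal region with its gag, pol and env genes, and ends in the downstream LTR. Many LTRs have lost their internal region by recombination and stand alone, and these solo LTRs can still serve as promoters, enhancers or transcript ends of nearby genes. Some HERVW copies are processed copies that were moved by LINE1 enzymes and lack parts of the LTRs. One copy, ERVW-1, encodes syncytin-1, the envelope protein that fuses trophoblast cells into the syncytiotrophoblast of the placenta.

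ERVW-1 lies on the minus strand of chromosome 7 at 92468380 to 92477986 in GRCh38 (GENCODE release 29), and it shows how the family is built. Its spliced transcript joins a first exon of 534 bases (92477382 to 92477915) to a second exon of 2229 bases (92468380 to 92470608) that holds the envelope reading frame. The first 49 bases of that transcript match its last 51 bases at 96.1% identity. In retroviral RNA both ends come from the LTRs. The RefSeq window around the ERVW-1 start (GRCh38.p14, chr7:92471375-92471674, minus strand) lies in the intron between these exons, so it shows internal provirus sequence and not the LTR promoter. It is printed with the TATA-like motif TATAAA in capitals, the only match to TATAAA or its reverse complement TTTATA in the window, starting at base 64 of 300. The window runs from 250 bases before the annotated start to 50 after it. The motif thus lies far upstream of that start, and whether it acts there was not tested. Of 35116 RefSeq windows of this length, 11.5% hold the motif on either strand.
ERVW-1 window: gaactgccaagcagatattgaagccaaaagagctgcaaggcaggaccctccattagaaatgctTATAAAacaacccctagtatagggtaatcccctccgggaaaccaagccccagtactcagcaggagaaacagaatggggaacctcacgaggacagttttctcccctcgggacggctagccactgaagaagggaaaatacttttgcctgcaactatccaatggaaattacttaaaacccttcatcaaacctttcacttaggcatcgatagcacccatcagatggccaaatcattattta

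Sequence like the ends of the ERVW-1 transcript also sits inside other annotated transcripts. How much of each end is LTR was not determined. A blastn search of the GENCODE transcripts with the first exon found similar stretches in transcripts of 23 other genes on 15 chromosomes, 11 in the same orientation and 12 in the opposite one, at 73.2% to 94.2% identity. A search with the 388 bases from the annotated coding region to the transcript end found 5 genes, and both searches together found 26 genes. The best-aligned transcript was not annotated as protein coding for 20 of the 23 genes and 3 of the 5. The repeat table pools the reads of all copies of a repeat, so the values that follow belong to no single locus, and neither ERVW-1 nor these transcripts can be read from them.

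Counts assigned to repeats summed to between 11520770 and 38312112 per library, with RSeT replicate 1 the deepest. Replicates correlated across entries at a Pearson's r of 0.996 to 0.997 on log2(CPM + 1), where CPM is the count per 1000000 counts of listed repeats and entries are not independent replicates. Gene-level markers of pluripotent or placental cells were not analysed here.

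The comparison of RSeT+DT with RSeT cells addresses the effect of the drugs. LTR17 RNA was higher in the treated cells. The RNA of the internal region stood close to its untreated level in CPM, and the sign of its difference depended on the scaling. LTR17 had 7540 and 6286 raw counts, or 577 and 546 CPM, in RSeT+DT cells, against 17309 and 7828 raw counts, or 452 and 455 CPM, in RSeT cells. Both treated libraries lay above both untreated ones. How many of all entries separate in this way was not counted, here or in the other comparisons. LTR17 averaged 561 ± 22.3 CPM in RSeT+DT and 454 ± 2.52 CPM in RSeT cells (SD, n = 2 each), a ratio of 1.24. With TMM scaling in edgeR the log2 fold change was 0.46 (SE 0.044; adjusted p = 5.64e-09, quasi-likelihood test with Benjamini-Hochberg adjustment over 4665 entries).

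HERV17-int had 6313 and 5551 raw counts in RSeT+DT, against 19105 and 8501 in RSeT cells. That is 483 and 482 CPM in RSeT+DT, against 499 and 495 CPM in RSeT cells. The treated libraries were thus slightly below the untreated ones in CPM, with a ratio of means of 0.972. With TMM scaling the log2 fold change had the opposite sign, 0.11 (SE 0.042; adjusted p = 0.0333, edgeR). It did not pass with RLE size factors (0.07, adjusted p = 0.184), and with library totals it was -0.042 (adjusted p = 0.564). When simple repeats, small RNA and ribosomal RNA were left out before scaling, it was 0.33 (adjusted p = 1.14e-08). This setting is called interspersed scaling here, although satellite repeats stayed in it. The sign of the HERV17-int difference therefore depended on the scaling. The rise of LTR17 passed under each of these, with log2 fold changes of 0.42 with RLE, 0.31 with library totals and 0.68 with interspersed scaling.

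Both HERVW entries were called higher with TMM, against 25.0% of all 4665 tested entries and 5.55% of the 1154 tested entries other than simple repeats and small or ribosomal RNA. Of those 1154, 54.3% were called lower with TMM, and their median log2 fold change was -0.22. This background moved with the scaling. With interspersed scaling 22.7% of 1151 entries were called higher and 20.8% lower, and with library totals 2.25% of the 1154 were called higher and 72.7% lower. LTR17 ranked 19th and HERV17-int 112th of the 1154 by log2 fold change with TMM. Among 138 tested internal regions, whose median was -0.23, HERV17-int ranked 15th.

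**Figure D1:**
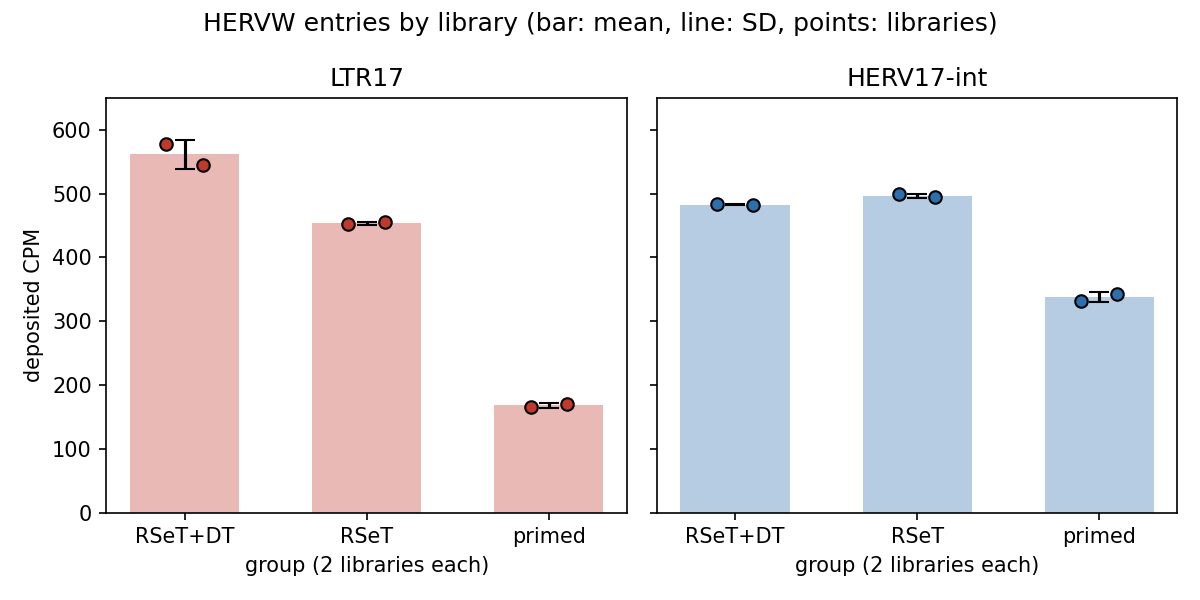
Deposited CPM (linear axis from 0) of LTR17, left, and HERV17-int, right, in RSeT+DT, RSeT and primed cells; bars are means, lines SD and points the 2 libraries of each group. LTR17 is highest in RSeT+DT cells at 577 and 546 CPM, while HERV17-int lies between 482 and 499 CPM in all RSeT+DT and RSeT libraries.

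RSeT against primed asks how the naive-type culture differs from the primed one. Both HERVW entries were higher in RSeT cells, LTR17 by more than HERV17-int. LTR17 had 452 and 455 CPM in the RSeT libraries, against 166 and 171 CPM in the primed libraries, where 2788 and 2330 raw counts were assigned to it. HERV17-int had 499 and 495 CPM in RSeT cells, against 332 and 343 CPM in primed cells, from 5590 and 4678 raw counts. The log2 fold change was 1.56 (SE 0.046; adjusted p = 1.19e-19, edgeR) for LTR17 and 0.69 (SE 0.042; adjusted p = 5.73e-13, edgeR) for HERV17-int. Across RLE, library totals and interspersed scaling, LTR17 ranged from 1.40 to 1.59 and HERV17-int from 0.53 to 0.72, and all of these passed.

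Here 22.8% of all tested entries and 50.8% of the 1154 entries other than simple repeats and small or ribosomal RNA were called higher, and 8.32% of the 1154 were called lower, all with TMM. Interspersed scaling gave 30.1% higher and 26.5% lower, and library totals gave 29.4% higher and 17.2% lower. The median of the 1154 was 0.16, and LTR17 ranked 18th and HERV17-int 118th among them. HERV17-int ranked 32nd of 138 internal regions, whose median was 0.25.

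RSeT+DT against primed spans both steps. LTR17 averaged 561 ± 22.3 CPM in RSeT+DT cells and 168 ± 3.81 CPM in primed cells (SD, n = 2 each), a ratio of 3.34. HERV17-int averaged 483 ± 0.995 CPM in RSeT+DT cells and 338 ± 7.97 CPM in primed cells (SD, n = 2 each), a ratio of 1.43. The log2 fold changes were 2.03 (SE 0.047; adjusted p = 5.01e-22, edgeR) for LTR17 and 0.80 (SE 0.043; adjusted p = 3.60e-14, edgeR) for HERV17-int. Here 25.1% of all tested entries and 24.6% of the 1154 were called higher, and 34.3% of the 1154 were called lower, all with TMM. The balance turned with interspersed scaling, at 32.3% higher and 29.6% lower, while library totals gave 10.8% higher and 60.9% lower. With TMM the median of the 1154 was -0.068, and LTR17 ranked 11th and HERV17-int 73rd. This comparison shares its libraries with the other comparisons and is no independent repeat of them. The smallest p that 2 libraries against 2 allow in an exact permutation test (two-sided) is 0.333, so the p-values given here rest on models fitted across entries.

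**Figure D2:**
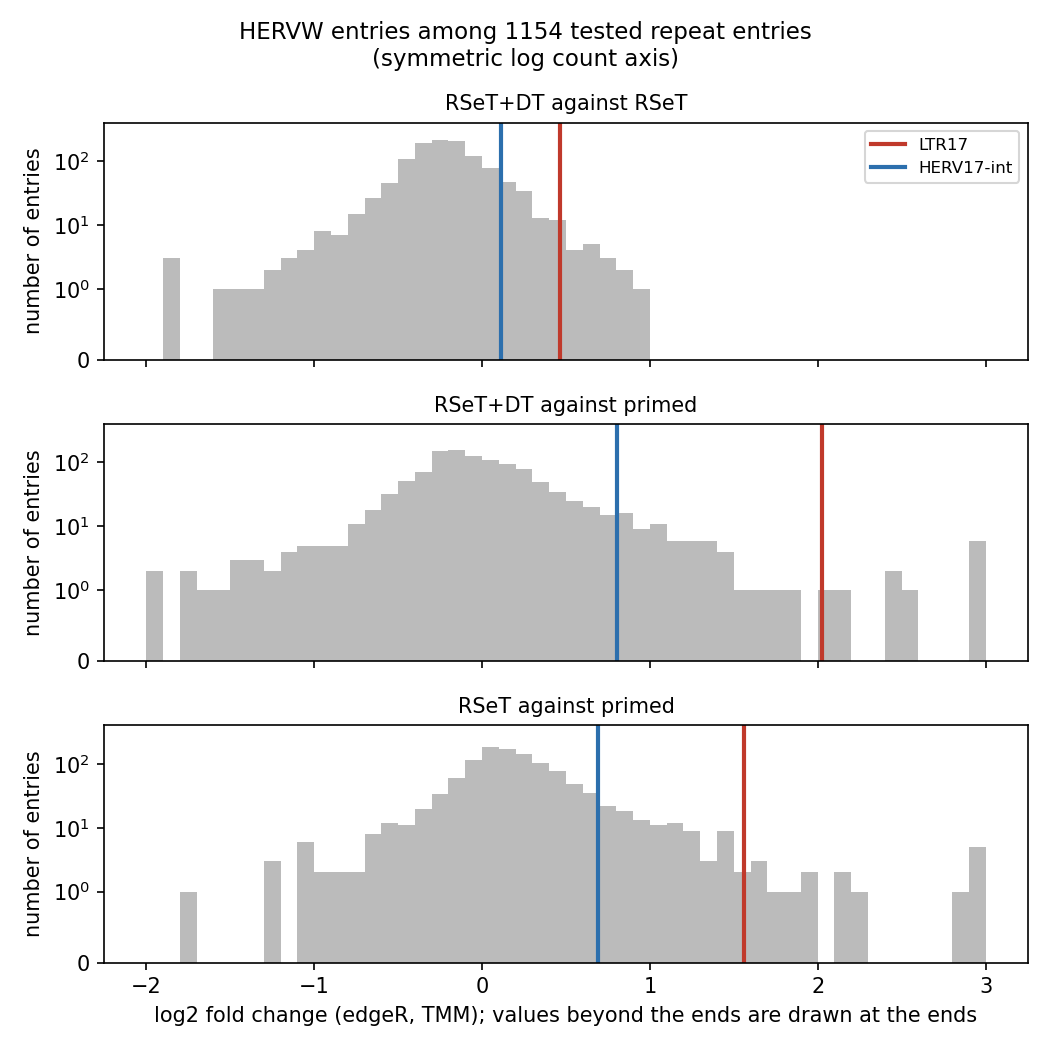
Log2 fold changes (edgeR, TMM) of the 1154 tested entries other than simple repeats and small or ribosomal RNA, as histograms with a symmetric log count axis, for RSeT+DT against RSeT, RSeT+DT against primed and RSeT against primed; red lines mark LTR17 and blue lines HERV17-int. LTR17 ranks 19th, 11th and 18th of 1154 in the panels from top to bottom.

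**Figure D3:**
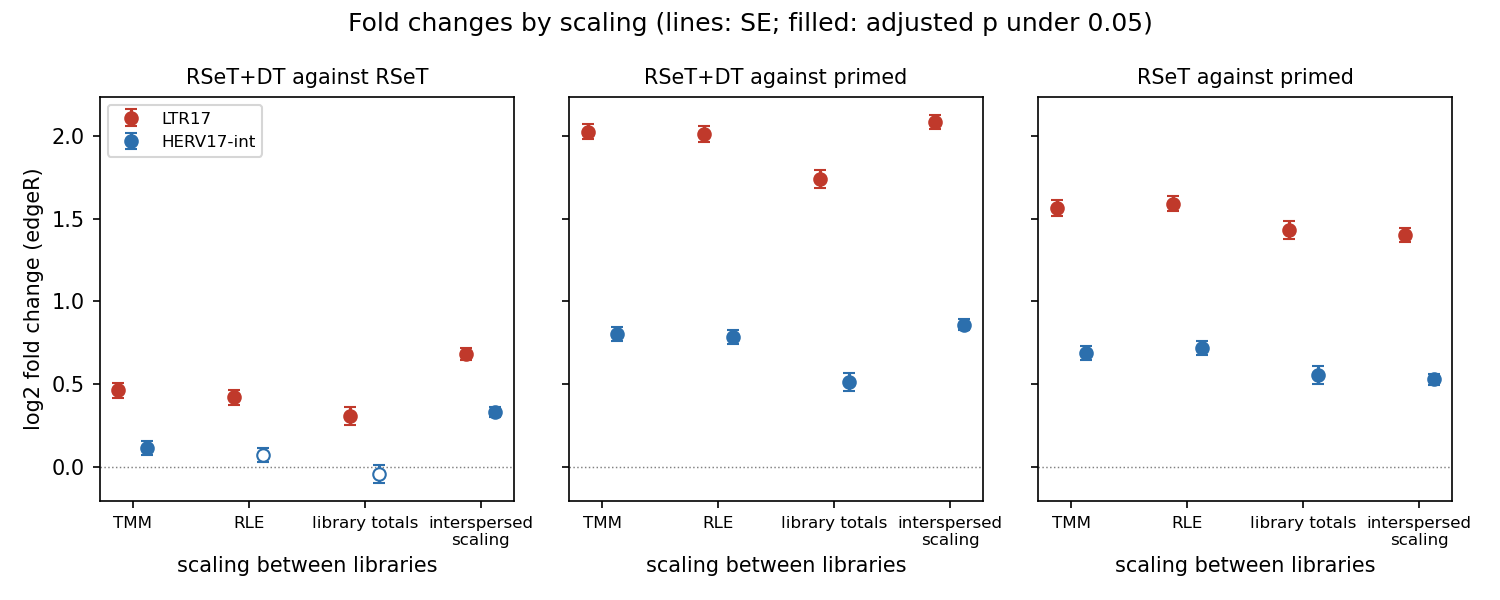
Log2 fold changes with SE (edgeR) of LTR17 and HERV17-int in the same comparisons under TMM, RLE, library totals and interspersed scaling; filled points passed at an adjusted p of 0.05. LTR17 is above 0 and filled throughout, while HERV17-int in RSeT+DT against RSeT runs from -0.042 with library totals to 0.33 with interspersed scaling.

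The balance between internal region and LTR is a ratio within each library and needs no scaling between libraries. It was lowest in RSeT+DT cells and highest in primed cells. Per LTR17 count there were 0.837 and 0.883 HERV17-int counts in RSeT+DT cells, 1.10 and 1.09 in RSeT cells, and 2.01 in both primed libraries. As a share of both entries together, HERV17-int took 45.6% and 46.9% in RSeT+DT cells, 52.5% and 52.1% in RSeT cells, and 66.7% and 66.8% in primed cells. The exact (Clopper-Pearson) 95% binomial intervals were 44.7% to 46.4% and 46.0% to 47.8% in RSeT+DT, 52.0% to 53.0% and 51.3% to 52.8% in RSeT, and 65.7% to 67.7% and 65.6% to 67.9% in primed cells. These cover counting error only. The intervals of different groups did not overlap, and those of replicates did. In how many other pairs of entries groups separate so was not counted. The entries differ in length, so the ratio does not compare the number of transcripts with and without an internal region.

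The change of this ratio was tested with limma over 78 pairs of an internal region and an LTR of the same or a closely related family, with log2((internal count + 0.5)/(LTR count + 0.5)) as the value. The HERV17-int to LTR17 ratio fell by 0.35 on the log2 scale in RSeT+DT against RSeT (SE 0.047; adjusted p = 0.0147, limma). It fell by 0.87 in RSeT against primed cells (SE 0.047; adjusted p = 8.39e-05, limma) and changed by -1.22 in RSeT+DT against primed cells (SE 0.047; adjusted p = 1.83e-05, limma). Across all 78 pairs 15.4%, 14.1% and 24.4% were called lower in these comparisons, in the same order. The median change over the pairs was -0.070 in RSeT+DT against RSeT, 0.098 in RSeT against primed and 0.079 in RSeT+DT against primed. The call in RSeT+DT against RSeT was lost without RSeT replicate 1 (-0.34, adjusted p = 0.0806) and without RSeT replicate 2 (-0.36, adjusted p = 0.0855), which leave 1 RSeT library that is assumed to vary like the other groups.

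Some pairs moved further. In RSeT against primed cells 4 of the 78 pairs had a larger absolute change than HERVW, among them HERVK-int over LTR5_Hs, the youngest human retrovirus family, at 2.32 and HERVE-int over LTR2 at -1.14. MER65-int over MER65A (1.03) and LTR37-int over LTR37A (-0.95) were the other pairs past it. Between RSeT+DT and RSeT cells 10 pairs had a larger absolute change, led by HERVS71-int over LTR6A at -1.25, and in RSeT+DT against primed cells 3 pairs did. HERV9-int over LTR12, the pair of a related retrovirus, also fell, with changes of -0.38, -0.61 and -0.99 in RSeT+DT against RSeT, RSeT against primed and RSeT+DT against primed cells (adjusted p = 0.0452, 0.00357 and 0.000631, limma). The other HERV9 pair, HERV9NC-int over LTR12C, went the other way against primed cells, with changes of -0.011, 0.44 and 0.43 in the same order (adjusted p = 0.859, 0.000624 and 0.000663, limma). The pairs of other relatives, listed below, are given in the same order. HERVFH19-int over LTR19A stood at -0.50, -0.49 and -0.99 (adjusted p = 0.0413, 0.0145 and 0.00110, limma). HERV30-int over LTR30 stood at -0.64, 0.036 and -0.61 (adjusted p = 0.0413, 0.830 and 0.0172, limma). MER41-int over MER41A stood at -0.023, 0.30 and 0.28 (adjusted p = 0.803, 0.00747 and 0.00975, limma). HERVH-int over LTR7, from the retrovirus most abundant in pluripotent cells, stood at -0.0056, 0.099 and 0.093 in the same order and passed in none of them (adjusted p = 0.936, 0.103 and 0.109, limma). The pairs of HERV9, of the other relatives and of HERVH were picked as examples after their values were seen.

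**Figure D4:**
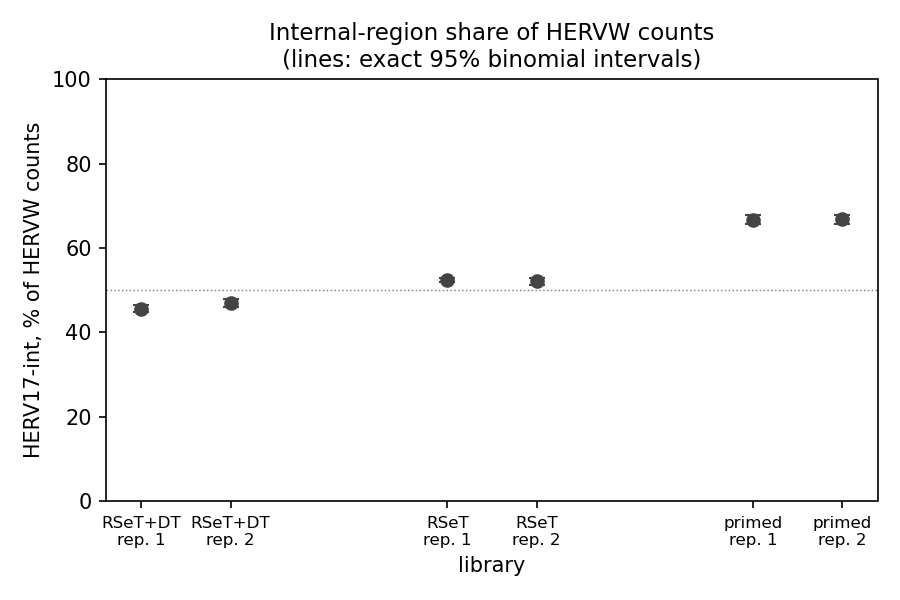
HERV17-int counts as a percentage of HERV17-int plus LTR17 counts in each library, with exact 95% binomial intervals; the dotted line marks equal counts. The share is 45.6% and 46.9% in RSeT+DT, 52.5% and 52.1% in RSeT, and 66.7% and 66.8% in primed cells.

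**Figure D5:**
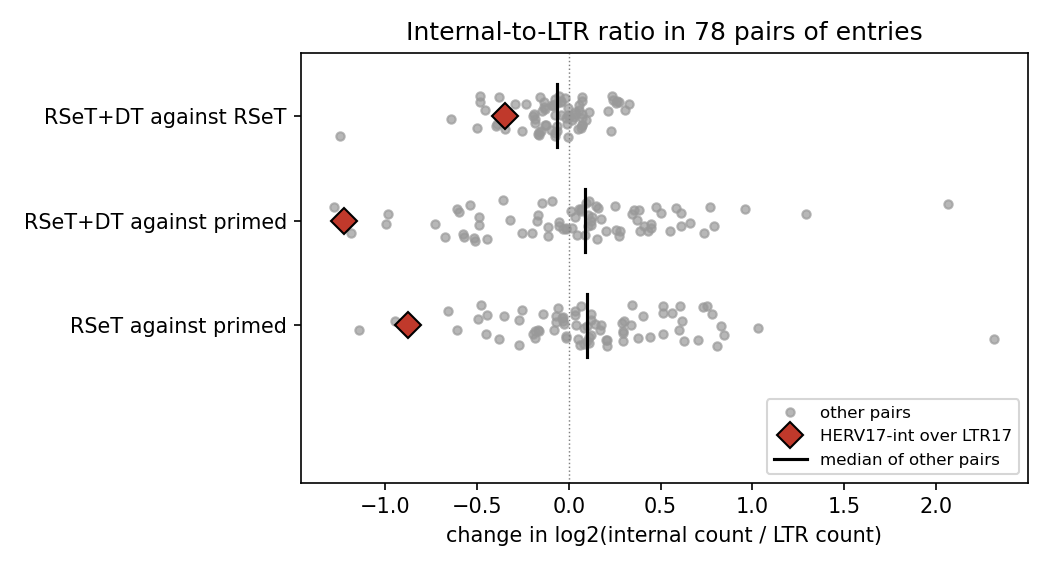
Change in log2 of internal over LTR counts for 78 pairs of entries (grey points, spread vertically at random; black line, median of the other pairs; red diamond, HERV17-int over LTR17), by comparison. The HERVW pair lies at -0.35, -1.22 and -0.87 from top to bottom, below the median of the other pairs each time.

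LTR17 and HERV17-int together had 1060 and 1028 CPM in RSeT+DT libraries, 951 and 950 CPM in RSeT libraries, and 498 and 514 CPM in primed libraries. The summed CPM of the family was thus ordered RSeT+DT, RSeT, primed, as was that of LTR17. For HERV17-int, the RSeT+DT and RSeT means were 483 and 497 CPM, and their order turned with the scaling.

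The profiles of the members over the 6 libraries were compared with those of 1138 other entries that are not simple repeats and average at least 50 counts, as the Euclidean distance of centred log2(CPM + 1). All entries share the same libraries and depth. The profiles nearest to LTR17 were those of L1HS, the youngest LINE1 subfamily (distance 0.322), LTR5 (0.359), tRNA-Glu-GAA (0.384), LTR7, the HERVH promoter (0.431), and MER61A (0.459). HERV17-int came only 53rd in this order, at 1.26. L1HS averaged 2430 CPM in RSeT+DT, 2385 CPM in RSeT and 883 CPM in primed cells, and MER61A averaged 278, 230 and 111 CPM in the same groups. The profiles nearest to HERV17-int were those of MER34B-int (0.124), AluYb8, a young Alu subfamily (0.139), LTR9D (0.150), LTR75 (0.159) and MER67D (0.160). MER34B-int averaged 248 CPM in RSeT+DT, 248 CPM in RSeT and 171 CPM in primed cells. It was chosen as nearest by these same values, so its close RSeT+DT and RSeT levels are no separate finding.

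HERVW belongs to a supergroup of gamma-like retroviruses with HERV9 and its LTR12 promoters, HERV30, HERV35, MER41 and LTR19. Of 28 listed relatives, all passed the filter on low counts. With the drugs (RSeT+DT against RSeT) 4 rose and 11 fell with TMM, against 14 and 1 with interspersed scaling and 2 and 15 with library totals. As shares of the list that is 14.3% higher and 39.3% lower with TMM, beside 5.55% and 54.3% of the 1154 entries. The shares were 50% and 3.57% with interspersed scaling, beside 22.7% and 20.8%, and 7.14% and 53.6% with library totals, beside 2.25% and 72.7%. In RSeT against primed cells 16 rose and 5 fell with TMM, against 12 and 8 with interspersed scaling and 13 and 5 with library totals. Those are 57.1% and 17.9% of the list with TMM, beside 50.8% and 8.32% of the 1154 entries. With interspersed scaling they are 42.9% and 28.6%, beside 30.1% and 26.5%, and with library totals 46.4% and 17.9%, beside 29.4% and 17.2%. For RSeT+DT against primed cells 14 rose and 5 fell with TMM, against 16 and 5 with interspersed scaling and 8 and 10 with library totals. As shares, TMM gave 50% and 17.9% of the list, beside 24.6% and 34.3% of the 1154 entries. Interspersed scaling gave 57.1% and 17.9%, beside 32.3% and 29.6%, and library totals gave 28.6% and 35.7%, beside 10.8% and 60.9%. The median log2 fold change of the list with TMM was -0.065, 0.29 and 0.19 in these comparisons, beside -0.22, 0.16 and -0.068 over the 1154 entries.

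The largest called changes among these relatives were smaller than those of LTR17 in the comparisons with primed cells. HERV9NC-int, an internal region of HERV9, averaged 866 ± 5.39 CPM in RSeT and 473 ± 4.46 CPM in primed cells (SD, n = 2 each) with a log2 fold change of 1.01, and LTR12D, a HERV9 promoter, had 0.97. HERV35I-int had 0.89, and HERVFH19-int, at 10.2 ± 0.432 CPM in RSeT and 18.1 ± 3.44 CPM in primed cells, had -0.69. Against primed cells, RSeT+DT cells had HERV9NC-int at 1.03, LTR12D at 0.93, LTR30 at 0.82 and HERVFH19-int at -0.78. In RSeT+DT against RSeT the largest were HERV35I-int (-0.51), HERV30-int (-0.49), MER41G (0.48) and LTR19A (0.41). MER41G averaged 19.6 ± 2.11 CPM in RSeT+DT and 16.0 ± 2.32 CPM in RSeT cells. LTR17, at 0.46, lay between these last values.

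Because syncytin-1 is a placental protein, LTRs with known use in the placenta or endometrium were listed. Each entry pools all its copies, so the list cannot identify a cell type. Of 17 such entries, 3 of them MER41 entries also counted among the relatives, 2 were called higher and 10 lower in RSeT+DT against RSeT with TMM, against 6 and 1 with interspersed scaling and 1 and 14 with library totals. As shares of this list that is 11.8% higher and 58.8% lower with TMM, beside 5.55% and 54.3% of the 1154 entries. With interspersed scaling 35.3% were higher and 5.88% lower, beside 22.7% and 20.8%, and with library totals 5.88% were higher and 82.4% lower, beside 2.25% and 72.7%. In RSeT against primed cells 10 rose and 3 fell, against 8 and 5 with interspersed scaling and 8 and 4 with library totals. Between RSeT+DT and primed cells 8 rose and 5 fell, against 9 and 5 with interspersed scaling and 2 and 9 with library totals. In RSeT against primed cells TMM called 58.8% of the list higher and 17.6% lower, beside 50.8% and 8.32% of the 1154 entries. In RSeT+DT against primed cells it called 47.1% higher and 29.4% lower, beside 24.6% and 34.3%. With interspersed scaling the list had 47.1% and 29.4% in RSeT cells, beside 30.1% and 26.5%. It had 52.9% and 29.4% in RSeT+DT cells, beside 32.3% and 29.6%. With library totals it had 47.1% and 23.5% in RSeT cells, beside 29.4% and 17.2%. In RSeT+DT cells that was 11.8% and 52.9%, beside 10.8% and 60.9%. The summed level of this list was 3665 and 3856 CPM in RSeT+DT, 4643 and 4777 CPM in RSeT and 4393 and 4578 CPM in primed libraries. The lowest raw count of any of its entries in any library was 306. These sums are in CPM, and the direction of the list in RSeT+DT against RSeT depended on the scaling. The part of other cell types in the LTR17 levels was not tested.

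Single entries of this list went both ways with TMM. LTR3A, the LTR of HERVK3, rose by 0.84 on the log2 scale in RSeT against primed cells, by 0.33 in RSeT+DT against RSeT and by 1.18 in RSeT+DT against primed cells. MER50-int rose by 0.87 in RSeT and by 0.68 in RSeT+DT, each against primed cells. MER39, which serves as a promoter of prolactin in the human endometrium, rose by 0.44 in RSeT against primed cells and fell by 0.35 in RSeT+DT against RSeT. MER21A, a placental promoter of the aromatase gene, fell by 0.28 in RSeT+DT against RSeT, as did THE1B, an element tied to placental expression of corticotropin-releasing hormone. LTR10A, a placental promoter of the endothelial nitric oxide synthase gene, fell by 0.41 and MER11D by 0.40 in RSeT+DT against primed cells.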

How the data were processed

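The authors deposited raw counts per repeat entry and a CPM table of 7383 of these entries. Each deposited CPM value equals the count per 1000000 counts of listed entries within 0.00442 CPM. STAR 2.7.8a, Trimmomatic 0.39, Subread 2.14.2 and featureCounts are named, with GRCh38, per the submitters' processing notes. What each did, the repeat annotation, the strand setting and the treatment of multiply mapped reads is not given in the sources. Reads of host transcripts that contain a repeat can count towards it, and related families can share reads.

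The main test was edgeR's quasi-likelihood test (version 4.0.16 in R 4.3.3) on counts, with filterByExpr (at least 10 counts, total of 15), TMM factors, group as the only term, all 6 libraries (3 residual degrees of freedom) and Benjamini-Hochberg adjustment at 0.05. Each edgeR SE is the absolute log2 fold change divided by the square root of F. Internal-to-LTR ratios were tested with limma 3.58.1 over 78 listed pairs of the same or a closely related family. Both tests were checked on simulated counts, and the outcome is not reported here. The simulation gave all entries and groups the same dispersion, so it does not cover spread that differs between them. Similar transcripts were found with blastn 2.17.0 (E-value limit 1e-10) in GENCODE release 29, and the printed sequence comes from RefSeq. No repeat annotation was used, so the transcripts are matched to ERVW-1 and not to LTR17 itself. The sequences of these transcripts are not reported here.

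The members, lists and pairs were chosen with earlier results of these data known. Named list entries are, unless said otherwise, the up to 4 largest called changes of a list and comparison. No value column was left unmapped.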

Additional observations from a re-analysis of the deposited data

How the results depend on the processing

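The rises of LTR17 in all 3 comparisons, those of HERV17-int against primed cells, and the fall of the HERV17-int to LTR17 ratio kept their direction and call under every alternative that kept all libraries. The exception among the member results was HERV17-int in RSeT+DT against RSeT, at 0.11 with TMM. It did not pass with RLE (0.071), with no filter on low counts (0.071), with a mean count of at least 50 (0.056), in DESeq2 1.42.0 (0.094) or with only the groups compared (0.10), and it turned to -0.042 with library totals and to -0.041 in limma on log2 of CPM plus 1 or plus 0.1. Adjusted p over its alternatives ran from 1.14e-08 to 0.694. The cause was not tested. With 1 library left out it ran from 0.093 to 0.15, and the call was lost without either RSeT library (0.13 without replicate 1, 0.10 without replicate 2) and without the first RSeT+DT library (0.093). The ratio in that comparison ran from -0.39 to -0.31 with 1 library left out. LTR17 ran from 0.31 to 0.68 there over the other alternatives, and its adjusted p up to 0.0486.

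No pairing of replicates is given by the labels, and deviations of same-numbered libraries correlated at -0.00076, -0.044 and 0.093. With the replicate block no call of these members changed, with HERV17-int at 0.11 and the ratio at -0.35 (adjusted p = 0.0318, limma) in RSeT+DT against RSeT, and 1148 entries rose and 801 fell there, against 1168 and 810 without it.

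Counts of all entries moved with the scaling and with the tool. DESeq2 also differed in its test and in the entries fitted (10511, before its own filter on low counts, against 4665). Limma on log2 CPM differed in both test and scaling. In RSeT against primed cells 1064 rose and 1110 fell with TMM, 683 rose and 1533 fell with library totals, 346 rose and 305 fell with interspersed scaling (fewer entries tested), 600 fell in DESeq2, and 502 and 418 rose and 1224 and 1008 fell in limma with CPM plus 1 and plus 0.1. In RSeT+DT against RSeT 1168 rose and 810 fell with TMM, but 789 rose and 1156 fell with library totals, 261 rose and 239 fell with interspersed scaling, and 626 and 482 rose and 967 and 769 fell in limma. In RSeT+DT against primed cells 1173 rose and 962 fell with TMM, 608 rose and 1787 fell with library totals, 372 rose and 341 fell with interspersed scaling, 597 fell in DESeq2, and 525 and 462 rose and 1735 and 1502 fell in limma. In the median, library totals shifted log2 fold changes by -0.15 in RSeT+DT against RSeT, by -0.13 in RSeT against primed and by -0.29 in RSeT+DT against primed cells, and interspersed scaling by 0.22, -0.16 and 0.06.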
